A study of Mus musculus with 16 samples.

Results

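Ifi204, Ifi203, Ifi202b, Ifi205 and Aim2 are 5 mouse genes of the p200 family, out of 20325 genes in an mRNA sequencing table of C3H10T1/2 cells, an established mouse line used as a model of mesenchymal stem cells. They were taken by symbol and had been selected on their values in these same libraries. Their levels are therefore given as a description, and no test of them is read as support. Every culture carried a lentivirus for stable expression of 1 histone H3 transgene, transduced for 2 days and followed by 4 days of puromycin at 1.5 µg/ml. There were 8 transgenes with 2 libraries each: H3.3 WT (wild type), H3.3 G34W, H3.3 G34R, H3.3 K27R, H3.3 G34W K27R, H3.3 G34W K36R, H3.1 WT and H3.1 G34W. A name such as G34W gives the wild-type residue, its position in H3 and its replacement, and the double names carry both replacements on 1 tail. The labels describe overexpression and no edit of the cells' own H3 genes, and none of the 8 groups is untransduced, so H3.3 WT and H3.1 WT are the reference groups. The series asks how changes at G34 of H3.3 alter transcription in mesenchymal stem cells.

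Proteins of the p200 family bind DNA through a HIN domain, and most of them also carry a pyrin domain that joins other pyrin proteins. Aim2 is a cytosolic DNA sensor that assembles an inflammasome with the adaptor Pycard and Casp1, whereas Ifi204 is the mouse gene often set beside human IFI16, and it takes part in signalling from cytosolic DNA to interferon. Ifi202b lacks a pyrin domain and is known as an inhibitor of Aim2 and as a candidate lupus susceptibility gene in mice. The Ifi200 genes take their name from induction by interferon, which acts through STAT and IRF factors on elements in promoters.

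The members stand in 1 cluster on mouse chromosome 1, in the order Aim2, Ifi204, Ifi203, Ifi202b and Ifi205 in RefSeq's GRCm38.p6 annotation, with other p200 genes between them. Upstream sequences from RefSeq's GRCm38.p6 are shown so that the letters near the starts of members and of other p200 genes can be compared, and Ifi204 is not among the windows used here. Each is the 250 bases before an annotated start, 5′ to 3′ on the gene's strand. Capitals mark a match on either strand to GAAANNGAAA, a core of the interferon-stimulated response element, or to TTCNNNGAA, a core of the STAT-binding gamma-activated site. The first set of letters occurred in 2.98% and the second in 7.02% of 32851 upstream windows of this length, and no match of 1 overlapped a match of the other in the windows printed.

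Ifi203: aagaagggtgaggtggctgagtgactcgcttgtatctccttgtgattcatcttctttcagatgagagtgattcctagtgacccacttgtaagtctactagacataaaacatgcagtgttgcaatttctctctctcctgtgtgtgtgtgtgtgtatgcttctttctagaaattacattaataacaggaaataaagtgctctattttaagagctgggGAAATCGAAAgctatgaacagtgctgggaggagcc
Ifi205: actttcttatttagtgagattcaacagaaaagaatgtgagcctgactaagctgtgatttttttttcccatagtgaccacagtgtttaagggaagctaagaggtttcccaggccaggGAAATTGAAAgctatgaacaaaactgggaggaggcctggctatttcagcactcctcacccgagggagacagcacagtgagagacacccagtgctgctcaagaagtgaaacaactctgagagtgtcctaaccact
Ifi202b: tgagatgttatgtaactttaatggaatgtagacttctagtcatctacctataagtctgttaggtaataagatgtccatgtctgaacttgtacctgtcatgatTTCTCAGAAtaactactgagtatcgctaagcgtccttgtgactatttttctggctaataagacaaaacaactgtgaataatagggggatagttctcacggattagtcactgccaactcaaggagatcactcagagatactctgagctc
Aim2: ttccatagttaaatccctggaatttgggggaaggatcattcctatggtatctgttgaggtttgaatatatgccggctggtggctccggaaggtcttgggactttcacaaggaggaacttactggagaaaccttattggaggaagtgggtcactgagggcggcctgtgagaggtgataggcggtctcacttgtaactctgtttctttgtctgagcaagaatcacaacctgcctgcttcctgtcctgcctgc
Mnda (Ifi211): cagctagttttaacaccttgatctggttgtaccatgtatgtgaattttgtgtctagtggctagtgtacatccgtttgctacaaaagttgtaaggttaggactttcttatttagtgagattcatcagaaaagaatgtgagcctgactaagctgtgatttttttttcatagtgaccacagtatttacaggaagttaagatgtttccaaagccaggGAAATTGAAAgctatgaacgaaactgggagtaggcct
Mndal: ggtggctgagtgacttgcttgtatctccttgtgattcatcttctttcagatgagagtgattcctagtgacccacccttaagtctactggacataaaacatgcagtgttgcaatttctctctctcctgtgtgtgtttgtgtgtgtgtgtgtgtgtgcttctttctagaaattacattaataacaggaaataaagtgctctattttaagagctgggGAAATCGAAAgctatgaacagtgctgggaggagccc

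The windows are chr1:173942493-173942742 (minus strand) for the downstream of the 2 Ifi203 starts, chr1:174031756-174032005 (minus) for Ifi205 and chr1:173982845-173983094 (minus) for Ifi202b. Those of Aim2, Mnda and Mndal are chr1:173420354-173420603 (plus), chr1:173913047-173913296 (minus) and chr1:173880188-173880437 (minus). GAAATCGAAA began 35 bases before the start in Ifi203 and 36 bases before it in Mndal. GAAATTGAAA began 134 bases before the start in Ifi205 and 37 before it in Mnda. The window of the other Mndal start, chr1:173879959-173880208 (minus), held the first set on the opposite strand, beginning 54 bases before that start. Ifi202b held TTCTCAGAA at 148 bases before the start and no match to the first set, and the Aim2 window held neither set of letters. Of the members' windows, those of Ifi205 and of 1 Ifi203 start thus held the first set, while the window of the other Ifi203 start, chr1:173942673-173942922 (minus), held neither. Among the p200 genes not printed, Pydc3 and Pydc4 held GAAATCGAAA, beginning 58 and 73 bases before the start, and Pyhin1 held neither set, like Aim2. A match is a description of letters in the reference genome and not of a bound site. The sequence of these cells was not examined and may differ from the windows, for Ifi202b as for the others.

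Values are the authors' normalized values, which are RSEM expected counts times 1 constant per library. Depth was 26.02 to 49.1 M reads per library, the 6 libraries of H3.1 WT, H3.1 G34W and G34W K36R being the deepest, and 3 reads correspond to 2.27 to 3.74 units. RSEM divides reads among similar genes. Whole read counts (within 0.01 reads) made up 41.5% to 47.6% of the values above 0 in a library. Ifi204 and Ifi203 had a whole count in 0 of 16 libraries, and Ifi205 in 0 of the 13 where it was above 0. Aim2 had one in 1 library and Ifi202b in 5. Which genes shared reads was not measured, so each gene's own level stays uncertain. Macrophage markers summed to 200 to 433 units per library. Cd14 stood at 99.5 to 331, Lyz2 at 7.25 to 137, Cd68 at 12.5 to 55.8 and Csf1r at 2.93 to 35.7. Itgam reached 38.6 and Aif1 6.78, Emr1 was at 0 in 14 libraries, and Ptprc was at 0 in 10 and at most 2.13. Lymphocyte markers summed to 0.770 to 9.33 with Cd3e at 0 in all 16. Mesenchymal markers summed to 430317 to 872254. Endothelial markers summed to 63.5 to 3113, nearly all of it Tek (59.6 to 3037), with Pecam1 at 0 in 2 libraries, Cdh5 in 5 and Kdr in 8. Their sum was 880 and 3113 in the G34W libraries, 807 to 831 in H3.3 WT, 1382 to 1414 in G34W K27R, 333 to 395 in G34W K36R and 63.5 to 106 in H3.1 WT, and its part in the results was not tested. In bulk RNA, fewer cells of a type and less RNA per cell cannot be told apart.

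The H3.3 WT libraries agreed within sampling noise over 2764 genes whose reads were whole (chi-square divided by its degrees of freedom 0.958) but not over all 12462 genes compared (1.23), and were averaged and counted as 1 sample. Libraries of H3.3 G34W, H3.1 WT and H3.1 G34W differed far more (SD of the log2 ratio 0.522 to 0.658, against 0.0438 to 0.0768 in the other groups). Replicate 1 of H3.1 G34W lay nearer to replicate 1 of H3.1 WT (correlation across genes 0.992) than to its own replicate (0.969), and replicate 2 lay nearest to replicate 2 of G34W K36R (0.975). Each library of H3.3 G34W was closer to one of G34R (0.949 and 0.978) than to the other G34W library (0.938). The labels do not say whether libraries of a group were separate cultures, so p-values below measure the spread between libraries, which may be technical.

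Ifi204, Ifi203, Ifi202b and Ifi205 were each highest in H3.3 G34W K27R, and Aim2 was highest in H3.3 WT. Ifi204 stood at 12468 and 11868 in the H3.3 G34W K27R libraries, 1795 and 1954 in H3.3 K27R, 1665 and 1891 in H3.1 WT, and 1384 and 1339 in H3.3 G34W K36R. It stood at 1329 and 1347 in H3.1 G34W, 1109.6 and 1177 in H3.3 G34R, 889.9 and 938 in H3.3 WT, and 485 and 530.2 in H3.3 G34W. The 2 G34W K27R libraries lay above all others and the 2 G34W libraries below all others. The neighbours in this order that overlapped were H3.3 K27R with H3.1 WT, and H3.3 G34W K36R with H3.1 G34W. The mean was 24.0-fold higher in G34W K27R than in G34W, 13.3-fold higher than in H3.3 WT and 6.49-fold higher than in K27R.

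Ifi203, another p200 gene with pyrin and HIN domains, stood at 11569 and 11164 in H3.3 G34W K27R, 1617 and 1855 in K27R, 1055 and 1247 in G34R, and 531 and 553 in G34W K36R. It stood at 437 and 439 in H3.3 WT, 394 and 342 in H3.1 WT, 170.3 and 190.3 in G34W, and 346 and 919 in H3.1 G34W. Apart from H3.1 G34W, whose replicates lay on either side of H3.3 WT and G34W K36R, no neighbouring groups overlapped. The G34W K27R mean was 63.1-fold that of G34W, 25.9-fold that of H3.3 WT and 6.55-fold that of K27R.

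Ifi202b, the inhibitor without a pyrin domain, stood at 8661 and 8729 in H3.3 G34W K27R, 1782 and 1861 in K27R, 1306 and 1328 in G34W K36R, and 998 and 1171 in H3.1 WT. It stood at 918 and 1085 in G34R, 727 and 670.3 in H3.3 WT, 177 and 388 in G34W, and 758 and 1871 in H3.1 G34W. G34W was again lowest in both libraries, with replicate 2 well above replicate 1, and the H3.1 G34W replicates spanned the range from above K27R to below H3.1 WT. The G34W K27R mean was 30.7-fold that of G34W, 12.4-fold that of H3.3 WT and 4.77-fold that of K27R.

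Ifi205, a p200 gene with pyrin and HIN domains, was the member closest to the floor of detection. It stood at 471 and 431 in H3.3 G34W K27R, 71.3 and 77.7 in G34R and 41.8 and 61.8 in K27R. In the other groups it stood at 4.07 and 6.93 (H3.3 WT), 0 and 4.90 (G34W), 2.03 and 0 (G34W K36R), 0.773 and 4.87 (H3.1 WT), and 0 and 0.808 (H3.1 G34W). G34W K27R, G34R and K27R overlapped with no other group, and the other 5 groups, all within reach of the value of 3 reads, overlapped their neighbours in the order of levels. From pooled reads, which cover counting error only and are rounded to whole reads, G34R was 13.9-fold (95% interval 7.52 to 28.5) and K27R 9.59-fold (5.11 to 19.9) above the 11 reads of H3.3 WT. G34W K27R was 84.5-fold above H3.3 WT (47.0 to 170) and 223-fold above the 4 reads of G34W (86.7 to 819).

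Aim2 had another order. It stood at 375 and 396 in H3.3 WT and 269 and 275 in K27R, then 122 and 141 in G34W, 98.4 and 124 in H3.1 G34W, 100.3 and 121 in G34R, and 103 and 112 in G34W K36R. The lowest were G34W K27R with 99.5 and 81.9 and H3.1 WT with 68.0 and 77.0. H3.3 WT and K27R stood apart from each other and above every other group, whereas the 4 groups from G34W to G34W K36R overlapped with their neighbours. The H3.3 WT mean was 1.42-fold that of K27R, 2.94-fold that of G34W, 3.49-fold that of G34R, 4.25-fold that of G34W K27R and 5.32-fold that of H3.1 WT.

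**Figure D1:**
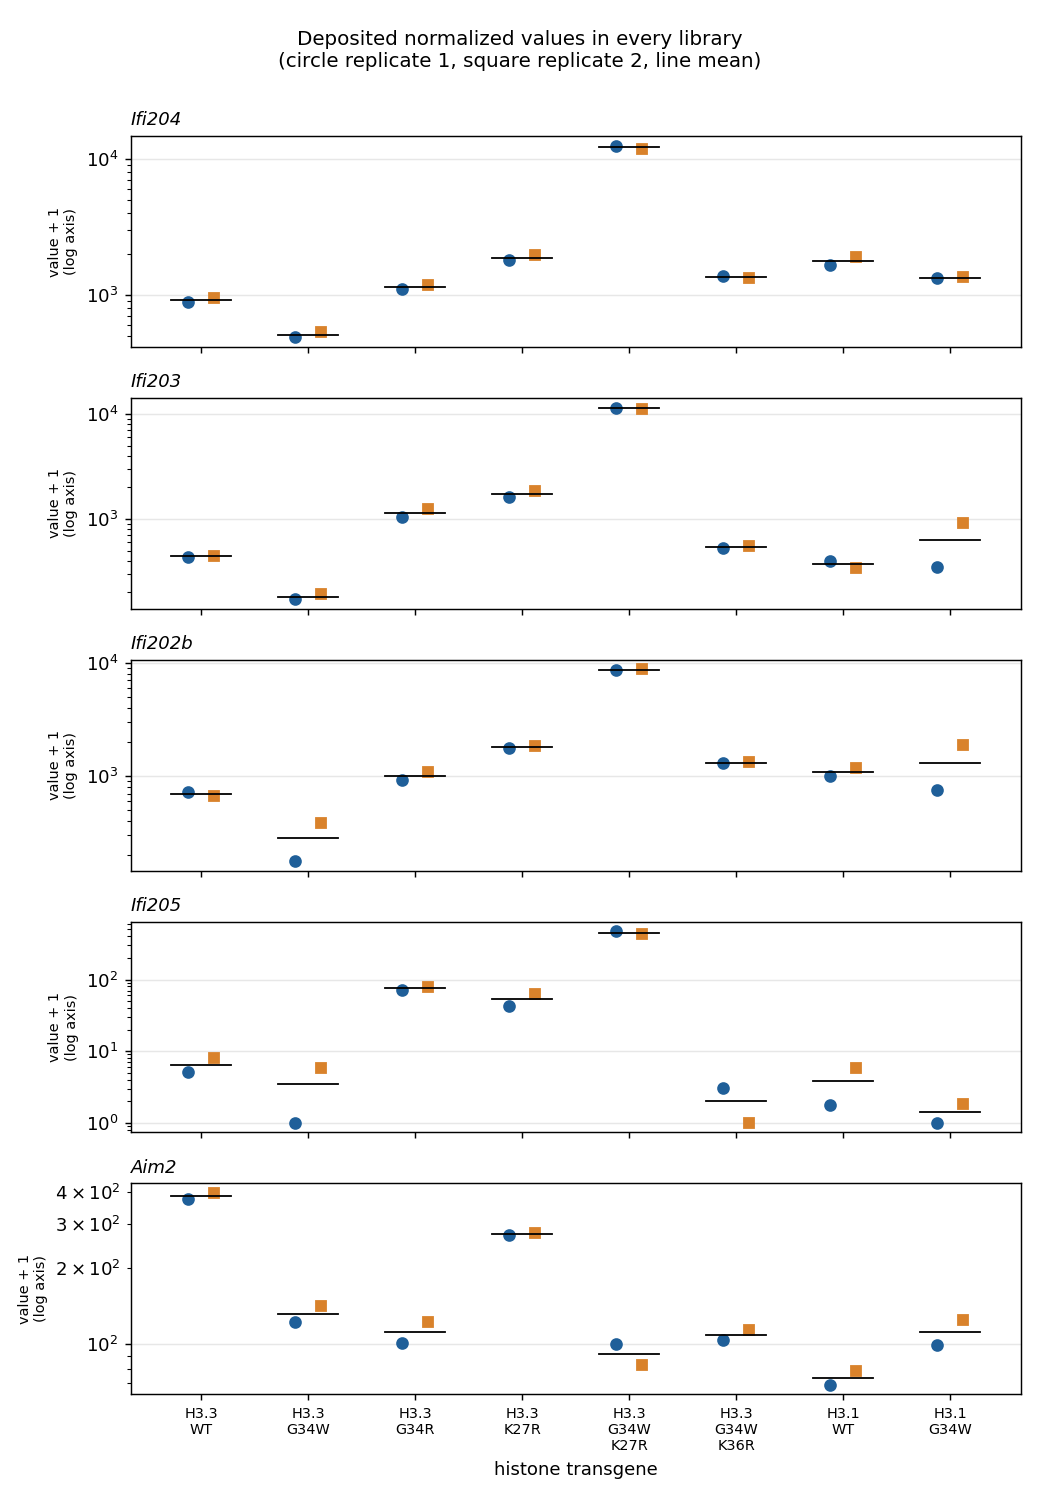
Deposited value + 1 (log axis, 1 panel per gene with its own range) in every library by histone transgene; circles are replicate 1, squares replicate 2, lines group means. The Ifi200 members peak in H3.3 G34W K27R (Ifi204 at 12468 and 11868), while Aim2 is highest in H3.3 WT (375 and 396).

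Differences between groups are given on the log2(value + 1) scale with the SE of a limma fit over 12670 genes, beside the median of 57 interferon-stimulated genes (antiviral effectors and interferon-induced GTPases) measured in the same fit. A gene was called at an adjusted p under 0.05 (limma, Benjamini-Hochberg over all 12670 genes). For the members, the number called is printed beside the share of all genes called, and nothing is read from it, since these values chose them. Comparisons that share a control share its error. The median over all 12670 genes lay between -0.03 and 0.02 in every comparison.

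The calls of the 57 depend on whether close libraries count as separate samples. With each of 5 close pairs counted as 1 sample, 52 of 57 were called in G34W K27R against G34W, 2 in H3.1 WT against H3.3 WT, and 0 in each of the other comparisons below. Leaving out each library in turn gave 55 to 57 in G34W K27R against G34W and 30 to 40 in H3.1 WT against H3.3 WT. It gave 2 to 40 in G34R and 4 to 48 in K27R against H3.3 WT, and 2 to 44 in G34R and 4 to 26 in G34W K36R against G34W. In these 4 the lowest count came without 1 library of the mutant (replicate 1 of K27R, otherwise replicate 2) and the highest without replicate 1 of H3.1 G34W. Without that library 30 were called in H3.1 G34W against H3.1 WT, and without replicate 2 of G34W 8 were in G34W against H3.3 WT. Of the 57, 1 reached the mean of 10 required for the fit only through G34W K27R.

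G34W on H3.3, against H3.3 WT, went with lower values of every member: -0.85 ± 0.14 for Ifi204, -1.28 ± 0.42 for Ifi203, -1.41 ± 0.49 for Ifi202b, -1.42 ± 1.06 for Ifi205 and -1.55 ± 0.27 for Aim2. The groups did not overlap except for Ifi205. The 57 interferon-stimulated genes had a median of -0.26, with 0 called in either direction by limma (2 higher and 10 lower at an unadjusted p under 0.05). Of the 5 members 0 were called higher, beside 0.750% of all genes, and 2 lower (Ifi204 and Aim2), beside 0.434%.

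G34R on H3.3, against H3.3 WT, set Aim2 against the others. Ifi205 was higher by 3.54 ± 1.06, Ifi203 by 1.39 ± 0.42, Ifi202b by 0.51 ± 0.49 and Ifi204 by 0.32 ± 0.14, while Aim2 was at -1.80 ± 0.27. The interferon-stimulated genes had a median of 2.10, and 21 of 57 rose and 0 fell. Of these 57 genes 1 lay below Ifi204, 4 below Ifi202b, 46 below Ifi205 and 0 below Aim2. Members called numbered 0 higher, beside 1.75% of all genes, and 1 lower (Aim2), beside 0.963%. Against G34W, the other change at the same residue, the G34R values were higher by 1.17 ± 0.12 for Ifi204, 2.66 ± 0.34 for Ifi203, 1.92 ± 0.40 for Ifi202b and 4.96 ± 0.87 for Ifi205, with Aim2 at -0.24 ± 0.22. The interferon-stimulated genes had a median of 2.60, and 28 of 57 rose and 0 fell. Here 3 members were called higher, beside 0.726% of all genes, and 0 lower, beside 0.118%.

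K27R on H3.3, against H3.3 WT, showed the same split. Ifi204 was higher by 1.03 ± 0.14, Ifi203 by 1.98 ± 0.42, Ifi202b by 1.38 ± 0.49 and Ifi205 by 3.0 ± 1.06, and Aim2 was at -0.50 ± 0.27. The interferon-stimulated genes had a median of 2.30, with 28 of 57 up and 0 down, and Aim2 lay below all 57. Members called numbered 2 higher (Ifi204 and Ifi203), beside 1.85% of all genes, and 0 lower, beside 0.908%.

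The addition of K27R to the G34W tail parted Aim2 from the other 4 members. Against G34W, G34W K27R was higher by 4.58 ± 0.12 for Ifi204, 5.97 ± 0.34 for Ifi203, 5.04 ± 0.40 for Ifi202b and 7.54 ± 0.87 for Ifi205. Aim2 was at -0.53 ± 0.22, below all 57 interferon-stimulated genes, each of which rose (median 6.06). Summed over 10 Ifi200 genes of the table, Aim2 left out, the level went from 978 and 1323 in G34W to 41507 and 40428 in G34W K27R, a ratio of means of 35.6; longer transcripts weigh more in such a sum. Members called numbered 4 higher, beside 9.24% of all genes, and 0 lower, beside 12.4%. Against K27R alone the 4 Ifi200 members were higher by 2.25 to 3.12 and Aim2 was at -1.58 ± 0.22, with a median of 2.51 in the interferon-stimulated genes.

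**Figure D2:**
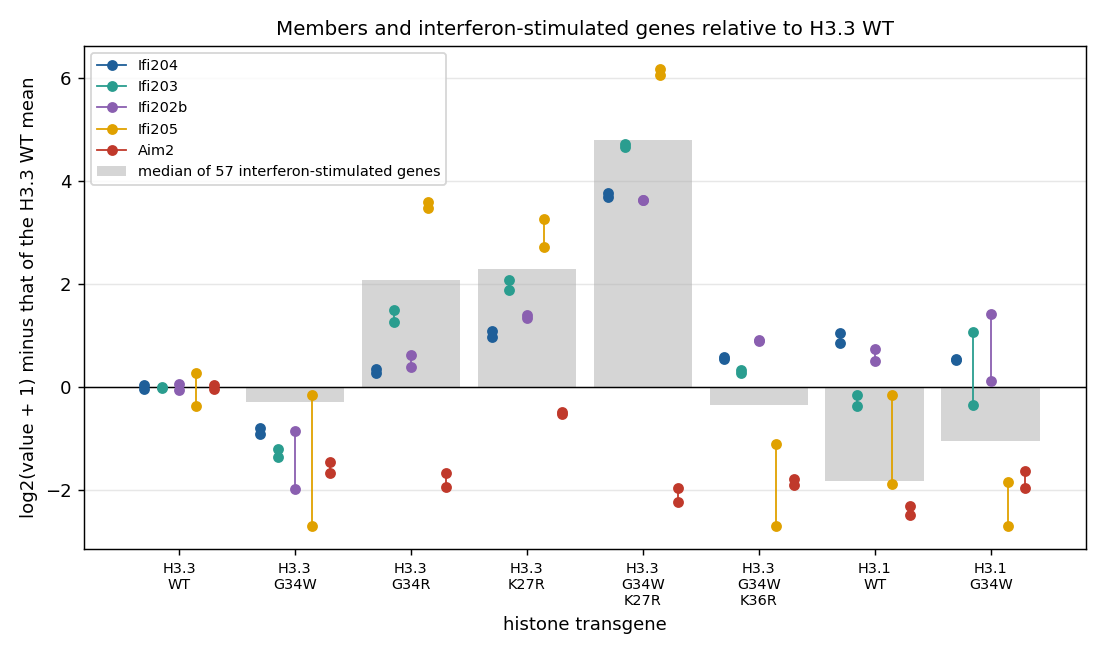
Difference of log2(value + 1) from the H3.3 WT mean by histone transgene; coloured points joined by a line are the 2 libraries of each group for each member, and grey bars are the mean over libraries of the median of 57 interferon-stimulated genes. Aim2 lies below 0 in every group but H3.3 WT itself, also where the bars reach 2.07 (G34R), 2.30 (K27R) and 4.80 (G34W K27R).

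G34W thus went with opposite differences for Ifi204, Ifi203 and Ifi202b on the 2 tails. With K27 intact the G34W libraries were lower than the H3.3 WT libraries for these 3, by the values above, and overlapped them for Ifi205. On the K27R tail, G34W K27R was higher than K27R by 2.70 ± 0.12 for Ifi204, 2.71 ± 0.34 for Ifi203, 2.25 ± 0.40 for Ifi202b and 3.12 ± 0.87 for Ifi205. The difference between the 2 effects of G34W was 3.55 ± 0.18 for Ifi204, 3.99 ± 0.54 for Ifi203, 3.66 ± 0.64 for Ifi202b and 4.54 ± 1.37 for Ifi205. For Aim2 it was -0.03 ± 0.35, with Aim2 lower by 1.55 with K27 intact and by 1.58 on the K27R tail. The interferon-stimulated genes had a median of 2.47 in this term, and 25 of 57 rose and 0 fell; 3 members were called higher, beside 2.72% of all genes, and 0 lower, beside 5.22%.

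**Figure D3:**
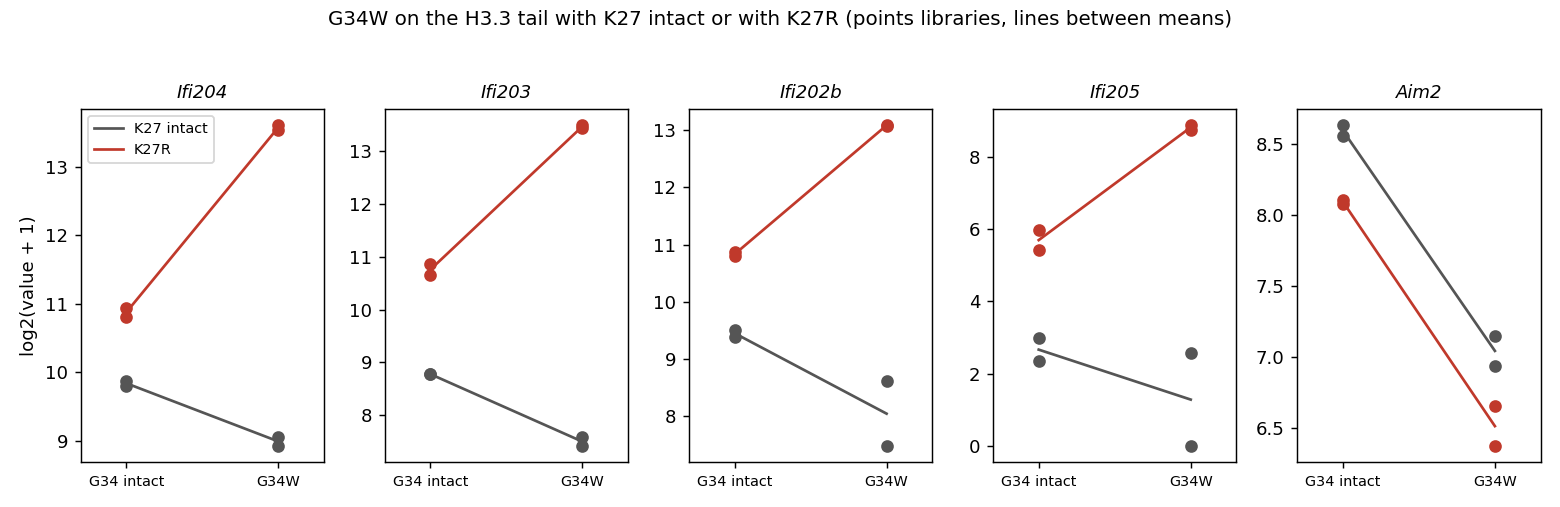
Log2(value + 1) of each member (1 panel each, own vertical range) without and with G34W, on the H3.3 tail with K27 intact (grey: H3.3 WT and G34W) or with K27R (red: K27R and G34W K27R); points are libraries and lines join group means. The lines run apart for the Ifi200 members (interaction 3.55 for Ifi204) and lie parallel for Aim2 (-0.03).

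K36R on the G34W tail went with higher values of 3 members, beside a median of -0.16 in the interferon-stimulated genes. Against G34W, G34W K36R was higher by 1.42 ± 0.12 for Ifi204, 1.58 ± 0.34 for Ifi203 and 2.32 ± 0.40 for Ifi202b, with no overlap, while Ifi205 was at -0.48 ± 0.87 and Aim2 at -0.28 ± 0.22. Of these interferon-stimulated genes 11 of 57 were called up and 7 down. These counts stand beside 14.4% of all genes higher and 16.2% lower, so nothing is read from that split. Of the 57, 52, 52 and 55 lay below Ifi204, Ifi203 and Ifi202b. The Ifi202b value was 2.89 without replicate 2 of G34W and 1.76 without replicate 1. Members called numbered 3 higher, beside 14.4% of all genes, and 0 lower, beside 16.2%. Measured from H3.3 WT, the values of G34W K36R were 0.57 ± 0.14, 0.31 ± 0.42 and 0.91 ± 0.49 for these members, beside a median of -0.35.

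H3.1 WT against H3.3 WT also parted the members. Ifi204 was higher by 0.96 ± 0.14 and Ifi202b by 0.63 ± 0.49 with no overlap, while Ifi203 was at -0.25 ± 0.42, Ifi205 at -1.01 ± 1.06 and Aim2 at -2.40 ± 0.27. The interferon-stimulated genes had a median of -1.81, with 4 of 57 up and 33 down, and 55 of the 57 lay below Ifi204 and 53 below Ifi202b. The members called were 1 higher (Ifi204), beside 16.3% of all genes, and 1 lower (Aim2), beside 17.0%, shares at which single calls are common. Within H3.1, G34W gave -0.41 ± 0.12 for Ifi204, 0.62 ± 0.34 for Ifi203, 0.14 ± 0.40 for Ifi202b, -1.26 ± 0.87 for Ifi205 and 0.60 ± 0.22 for Aim2. No member and no other gene was called here (0% higher and 0% lower with limma; 2015 of 12670 genes had an unadjusted p under 0.05). Without replicate 1 of H3.1 G34W the Ifi203 value was 1.32 and the Ifi202b value 0.79, and without replicate 2 they were -0.08 and -0.51, so their sign rests on 1 library. The interferon-stimulated genes differed the same way between these libraries: relative to H3.3 WT their median was -1.61 in replicate 1 and -0.47 in replicate 2.

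Pycard and Casp1, which form the inflammasome with Aim2, did not reach the mean of 10 and were not tested: Pycard was at 0.770 to 15.3 and Casp1 at 0 to 9.98 over the 16 libraries. Of 7 other inflammasome genes tested, 2 rose in G34W K27R against G34W, the caspase Casp4 by 1.77 (adjusted p = 0.0296, limma) and the pore former Gsdmd by 1.06 (adjusted p = 0.0365, limma), and 1 fell, the flagellin receptor Naip5 (-1.01, adjusted p = 0.00497, limma), beside 9.24% of all genes higher and 12.4% lower. In H3.1 WT against H3.3 WT 3 of the 7 fell, among them Casp4 (-2.88, adjusted p = 0.00592, limma), and 1 rose, beside 17.0% of all genes lower and 16.3% higher. Of 22 other genes of nucleic acid sensing 5 rose and 3 fell in G34W K27R against G34W; the Z-nucleic acid sensor Zbp1 rose by 8.27 and the exonuclease Trex1 by 1.86, and the chromatin protein Hmgb2 fell by 2.47. Tmem173, which encodes STING, fell by 1.85 in H3.1 WT against H3.3 WT and rose by 2.09 in G34W K36R against G34W (limma). With close pairs counted as 1 sample, 0 of the 7 inflammasome genes were called in any comparison, and of the 22 sensing genes Zbp1 (adjusted p = 0.0211, limma) and Hmgb2 (adjusted p = 0.0498) were, in G34W K27R against G34W.

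Genes that carry the interferon signal were higher in G34W K27R with the Ifi200 members. Of 14 tested, 9 rose and 0 fell against G34W, among them Irf7 (6.21 ± 0.78), Stat2 (3.3 ± 0.47) and Irf1 (3.0 ± 0.25). Of all genes, 9.24% were called higher and 12.4% lower in that comparison. In H3.1 WT against H3.3 WT 5 of the 14 fell and 0 rose, beside 17.0% of all genes lower and 16.3% higher. Irf7 was at -3.85 ± 0.96 in this comparison, in which Ifi204 and Ifi202b were higher. Genes of the class I antigen presentation pathway went alike: 11 of 11 rose in G34W K27R against G34W, such as H2-K1 by 4.34 ± 0.27 and its transactivator Nlrc5 by 4.68 ± 0.31, and 9 of 11 fell in H3.1 WT against H3.3 WT. In G34W K36R against G34W, where Ifi204, Ifi203 and Ifi202b were higher, 6 of the 11 fell and 0 rose. The shares of all genes there were 16.2% lower and 14.4% higher. The immunoproteasome subunit Psmb9 was at -3.23 ± 0.69. With close pairs counted as 1 sample, 4 of 14 signalling genes and 8 of 11 presentation genes were called higher in G34W K27R against G34W and 7 of 11 presentation genes lower in H3.1 WT against H3.3 WT, and 0 of either list in G34W K36R against G34W.

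The other p200 genes of the table were tested, since the choice of members did not name them. They cannot be taken as independent of the members, since RSEM may divide reads among similar genes. Their list was also made with earlier results of these data known, so their p-values are no separate support for the members. Mnda, Mndal and Pydc3 had a mean of at least 10 also without G34W K27R. Pyhin1 and Pydc4 reached it only through G34W K27R (8.55 and 6.61 over the other libraries), so their values are given with no test, and BC094916 did not reach it (mean 7.75). In G34W K27R against G34W, Mnda rose by 4.75 ± 0.22 (adjusted p = 9.95e-07, limma), Mndal by 6.40 ± 0.44 (adjusted p = 7.95e-06) and Pydc3 by 5.57 ± 0.43 (adjusted p = 1.49e-05). Pyhin1 stood at 274 and 248 in G34W K27R beside 2.82 and 7.69 in G34W, and Pydc4 at 579 and 568 beside 5.63 and 2.19. BC094916 stood at 46.7 and 47.5 in G34W K27R, 11.4 and 10.6 in K27R, and at most 4.12 in any other library. With each close pair of libraries counted as 1 sample, adjusted p was 0.00882 for Mnda, 0.00902 for Mndal and 0.0166 for Pydc3 in limma.

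In G34W K36R, where Ifi204, Ifi203 and Ifi202b were higher than in G34W, Mnda and Mndal rose. Against G34W, Mnda rose by 1.64 ± 0.22 (adjusted p = 5.23e-04, limma) and Mndal by 1.70 ± 0.44 (adjusted p = 0.0163), while Pydc3 was at 0.25 and not called. Pyhin1 was at 0 in both libraries of G34W K36R and of H3.1 WT, beside 2.82 and 7.69 in G34W and 3.87 and 5.81 in H3.3 WT, and Pydc4 had 1 and 0 reads in G34W K36R beside 6 and 2 in G34W, values that lie near that of 3 reads. In H3.1 WT against H3.3 WT Mnda was at 0.63 ± 0.26 (adjusted p = 0.0913, limma). With close pairs counted as 1 sample the adjusted p in G34W K36R against G34W was 0.171 for Mnda and 0.367 for Mndal.

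The difference between the effects of G34W on the 2 tails was tested for Mnda, Mndal and Pydc3. It was 3.75 ± 0.34 for Mnda (adjusted p = 3.36e-04, limma), 4.00 ± 0.70 for Mndal (adjusted p = 0.00697) and 4.45 ± 0.67 for Pydc3 (adjusted p = 0.00357). With close pairs counted as 1 sample none of the 3 passed in limma, Mnda reaching an adjusted p of 0.262. In K27R against H3.3 WT Mndal rose by 2.40 ± 0.54 (adjusted p = 0.0472, limma). This call was lost with close pairs as 1 sample and in most of the other alternatives. Pydc4 stood at 21.3 and 23.3 in K27R and 23.6 and 13.5 in G34R, beside 0.968 and 0 in H3.3 WT.

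**Figure D4:**
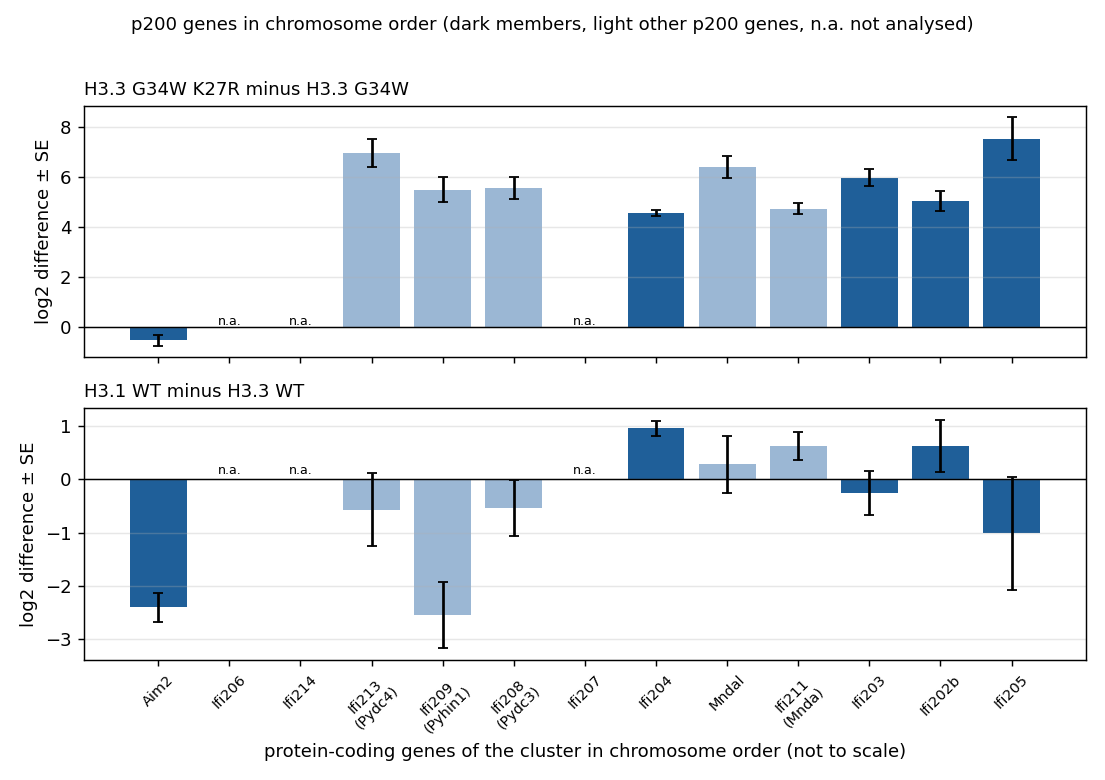
Log2 difference ± SE for p200 genes in chromosome order (equal steps, not to scale), in H3.3 G34W K27R against H3.3 G34W (top) and H3.1 WT against H3.3 WT (bottom); dark bars are the members, light bars the other p200 genes. In the top panel every bar but that of Aim2 (-0.53) is above 4. The members were chosen on these values, and Pyhin1 and Pydc4 entered the fit only through G34W K27R. Nothing is therefore read from the height of these bars. In the bottom panel Ifi204 (0.96), Ifi202b (0.63), Mnda (0.63) and Mndal (0.28) are above 0. Aim2 (-2.40), Pyhin1 (-2.55), Ifi205 (-1.01), Pydc4 (-0.57), Pydc3 (-0.54) and Ifi203 (-0.25) are below. Pyhin1 had only 4 and 6 reads in H3.3 WT.

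The gene at either edge of the cluster was barely expressed: Cadm3, before Aim2, was at most 6.23 in any library and Olfr433, after Ifi205, at most 1.11. Within the cluster Aim2 and Ifi205 lie at opposite ends, and Pydc4, Pyhin1 and Pydc3 are the analysed genes that come next after Aim2. Pydc3 was higher in G34W K27R than in G34W, like the Ifi200 members. Pydc4 and Pyhin1 were higher there too, but they entered the fit only through G34W K27R, so nothing is read from this. Likeness of pattern was measured as the Pearson correlation of log2(value + 1) over the 15 samples of the fit, a description over samples that share groups. The most alike non-member was Mnda for Ifi204 (0.987), Mndal for Ifi203 (0.991), Tmem106a for Ifi202b (0.960) and A530032D15Rik for Ifi205 (0.981). Next came Ifit2 (0.979) and Irgm1 (0.974) for Ifi204, Gbp2 (0.958) and Cd274 (0.956) for Ifi203, Mnda (0.95) and Mndal (0.943) for Ifi202b, and Zbp1 (0.971) and Gbp8 (0.967) for Ifi205. Aim2 correlated with the other members at -0.27 to 0.09, and its most alike genes were Raet1d (0.926), Lhpp (0.922) and Camk2a (0.913), none of them in the interferon lists. Ifi204 and Ifi202b correlated at 0.95, and each correlated with Ifi205 at 0.70.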

How the data were processed

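mRNA of 16 libraries was sequenced. Per the submitters' processing notes the authors used RSEM 1.2.4 and mm9; aligner, annotation and filters are not given in the sources used here. The deposited signal values are median-normalized, and in each library they are hundredths of a read times 1 constant, that is, RSEM expected counts rescaled. Whole reads made up 41.5% to 47.6% of values (within 0.01 reads), so no count model was run. Intervals and the floor of 3 reads cover counting error only, at 95%.

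The log2(value + 1) of 12670 genes, those whose mean reached 10, was fitted with limma 3.58.1 in R 4.3.3 (eBayes with trend and robust, statmod 1.5.0) over all 8 groups, 15 samples with the H3.3 WT pair averaged, and 7 residual degrees of freedom, two-sided, with Benjamini-Hochberg adjustment and a threshold of 0.05. The fit was tested on simulated data in which every library of a gene had the same spread. The groups here differ in spread, so that test does not show how unequal spread affects the calls. Members and lists were chosen with earlier results of these data known. The genes named are the members, the other p200 genes, up to 4 called genes with the largest difference and no overlap per list, and the 5 most alike genes per member. The figures' groups follow the labels.

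Replicate numbers did not pair the libraries: deviations of same-numbered libraries correlated at -0.265 to 0.0598 over the 28 group pairs. Alternatives were pseudocounts of 0.5 and 5, no filter, a minimum mean of 50, a TMM rescaling, H3.3 WT as 2 samples, close pairs as 1 sample, a replicate block, and each library left out in turn; 3 comparisons and the interaction of G34W with K27R, with lists under close pairs, were added after seeing the data. Upstream windows came from RefSeq's GRCm38.p6, not mm9, and were matched by symbol.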

Additional observations from a re-analysis of the deposited data

Results flagged for a closer look

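For 3 members every G34W library lay below every H3.3 WT library while every G34W K27R library lay above every K27R library, so that G34W went with opposite directions on the 2 tails. The difference between these effects on the log2(value + 1) scale was 3.55 for Ifi204, 3.99 for Ifi203 and 3.66 for Ifi202b. These 3 members were called in this term, and nothing is read from those calls, since their values chose them. Ifi205 was not among them because its G34W and H3.3 WT libraries overlapped.

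For Aim2 every G34W library lay below every H3.3 WT library, and every H3.1 G34W library (98.4 and 124) lay above every H3.1 WT library (68.0 and 77.0). The effect of G34W in H3.1 minus that in H3.3 was 2.16 on the log2(value + 1) scale, and this difference was not tested. Replicate 1 of H3.1 G34W is the library nearest in profile to replicate 1 of H3.1 WT (correlation across genes 0.992).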

How the results depend on the processing

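Differences of members were compared under both other pseudocounts, the TMM rescaling, close pairs as 1 sample and each library left out, and not under the remaining alternatives. Every difference of a called member kept its sign in these. Nothing is read from this, since a call already picks differences that are large beside their error. Over them 1167 values of members moved by less than the spread between replicates and 33 by more. With H3.3 WT as 2 samples, genes called against H3.3 WT numbered 956 (G34W, 150 in the fit reported), 1313 (G34R, 344) and 1124 (K27R, 349), and with a replicate block 802, 1140 and 1003; the replicate block moved no other count of genes by over 1.5 times. With close pairs as 1 sample these were 0, 0 and 0, and the counts were 621 for H3.1 WT against H3.3 WT (4229), 347 for G34W K27R (2742), 132 for G34W K36R (3882) and 0 for G34R (107) against G34W; this fit has 3 residual degrees of freedom. H3.1 G34W against H3.1 WT gave 4 with no filter and 4 with H3.3 WT as 2 samples (0).

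Leaving out 1 library gave 50 to 1526 (G34W), 75 to 987 (G34R), 101 to 882 (K27R) and 3510 to 5417 (H3.1 WT) against H3.3 WT, and 0 to 2477 for H3.1 G34W against H3.1 WT. Against G34W it gave 1305 to 3507 (G34W K27R), 1645 to 4884 (G34W K36R) and 3 to 1065 (G34R). The highest counts for G34W, G34R and K27R came without replicate 2 of G34W, and the 2477 without replicate 1 of H3.1 G34W; a group left with 1 library is assumed to vary like the others. Without replicate 1 of G34W, Ifi205 in G34W against H3.3 WT was at -0.14, and without replicate 2 at -2.70. Of differences not called, those of Ifi203 and Ifi202b in H3.1 G34W, of Ifi205 in G34W K36R against G34W (-1.76 to 0.80) and of Aim2 in the interaction (-0.17 to 0.11) changed sign with 1 library left out. Depth limits Ifi205, which had 11 reads in H3.3 WT and 4 in G34W.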

Other observations

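Of 5 osteoblast genes tested 1 rose, Spp1 by 3.88 ± 0.33, and 1 fell, Alpl by 3.91 ± 0.47, in G34W K27R against G34W (limma). Of 8 adipocyte genes 0 rose and 2 fell there, Hsd11b1 by 1.43 ± 0.21 and Cebpa by 1.12 ± 0.20, although 6 of the 8 differences were above 0 and their median was 1.46. Of all genes, 9.24% were called higher and 12.4% lower in this comparison. The G34W libraries lay far apart for the adipocyte genes of highest mean, Fabp4 (mean 3746, SD 5192) and Lpl (mean 3118, SD 2947). With close pairs counted as 1 sample, the adjusted p in limma was 0.0138 for Spp1, 0.0696 for Alpl, 0.168 for Hsd11b1 and 0.296 for Cebpa, so only Spp1 of these 4 was still called. Within the summed level of 10 Ifi200 genes, the share of Ifi203 was 27.9% and 27.6% in G34W K27R and 11.02% and 9.03% in H3.1 WT, and that of Ifi204 was 30.0% and 29.4% and 46.6% and 49.96%, so the make-up of the sum differed between these groups as well as its size.

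Raet1d, the gene most alike to Aim2, had a mean of 75.1 in H3.3 WT and 28.7 ± 8.59 (SD, n = 2 libraries) in K27R, and at most 4.83 in the mean of any other group. Camk2a had a mean of 677 in H3.3 WT, 503 ± 4.39 in K27R and 216 ± 48.6 in G34W.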
